A study of Mus musculus with 9 samples.

Results

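The genes described here are 5 alpha-arrestin genes, Arrdc1, Arrdc2, Arrdc3, Arrdc4 and Txnip, out of 19938 genes measured. They were chosen by name. The rule would have kept the brightest of several probe sets for a gene, but each of the 5 had 1, so no measured level decided which values stand for it. The samples were 9 cell lines grown from tumors of 4T1, a mouse mammary carcinoma line that forms metastases in distant organs, and each line was measured on 1 Affymetrix Mouse Gene ST array. The 3 primary lines (4T1-T2) came from primary tumors, the 3 lung lines (4T1-LM2) from lung metastases and the 3 brain lines (4T1-BM2) from brain metastases, from 3 mice per origin, with no treatment and no genetic change named in the labels. All 9 descend from 4T1, the 3 lines of an origin share a name whose meaning is not stated, and all were expanded in culture, so the values describe cultured cells and not tumors in the animal. Lines are numbered below as the mice of each origin are in the labels, which do not say whether an equal number in 2 origins means the same mouse.

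Alpha-arrestins are adaptor proteins. Their arrestin fold recognises membrane proteins, and short PPxY motifs in their tails bind the WW domains of ubiquitin ligases of the NEDD4 family, so that the bound cargo is ubiquitinated and taken inward or sorted to lysosomes. Arrdc3 has been studied in breast cancer, where its human counterpart is described as a suppressor of invasion that directs integrin beta 4 to degradation. Txnip also binds and inhibits thioredoxin and lowers glucose uptake, Arrdc4 acts on glucose uptake as well, and both genes are induced by sugar through the transcription factor MondoA (Mlxip). Arrdc1 recruits the budding machinery that releases small vesicles from the plasma membrane.

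The 250 bases before the start of a gene show how different the members are in the region where transcription begins. They are taken from RefSeq (build GRCm38.p6, written 5′ to 3′ on the strand of the gene). For the 3 genes printed and for Arrdc2 the outermost start was used, and for Arrdc1 the table's start lies inside the outermost end of the gene. Arrdc3 is shown because the results turn on it, and Txnip and Arrdc4 because both are known sugar-induced genes. Capitals mark matches to a set of 6 motifs searched on both strands: the E-box CACGTG, a pair of such half-sites spaced by 5 bases (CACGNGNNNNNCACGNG, the form of a carbohydrate response element), GTAAACA (FOXO), CATTCC (TEAD), CCAAT and TGANTCA (AP-1).
Arrdc3, chr13:80883134-80883383, plus strand: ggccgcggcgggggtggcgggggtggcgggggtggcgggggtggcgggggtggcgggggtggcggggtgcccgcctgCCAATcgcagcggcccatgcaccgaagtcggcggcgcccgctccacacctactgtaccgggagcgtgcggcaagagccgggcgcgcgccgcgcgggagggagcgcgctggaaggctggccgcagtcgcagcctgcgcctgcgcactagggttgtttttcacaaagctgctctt
Txnip, chr3:96557707-96557956, plus strand: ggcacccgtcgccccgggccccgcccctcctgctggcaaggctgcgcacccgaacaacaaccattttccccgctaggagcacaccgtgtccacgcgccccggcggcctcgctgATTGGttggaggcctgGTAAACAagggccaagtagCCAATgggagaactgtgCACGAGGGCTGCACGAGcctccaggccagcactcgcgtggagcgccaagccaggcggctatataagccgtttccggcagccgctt
Arrdc4, chr7:68749239-68749488, minus strand: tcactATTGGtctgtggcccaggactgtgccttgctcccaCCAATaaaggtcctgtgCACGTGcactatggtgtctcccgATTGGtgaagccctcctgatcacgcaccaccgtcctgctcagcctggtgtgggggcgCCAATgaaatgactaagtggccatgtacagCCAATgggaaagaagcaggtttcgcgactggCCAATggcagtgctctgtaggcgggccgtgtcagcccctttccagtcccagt
The Txnip window held the paired element at bases -85 to -69 from the start, a match that only 15 of 32851 windows of the same length held (0.0457%), and a FOXO match at -121 to -115, which 3.17% of windows held. The Arrdc4 window held an E-box at -193 to -188 (6.02% of windows) and 6 CCAAT matches. The Arrdc3 window printed is 76.0% G and C and held 1 CCAAT match, at -173 to -169, and none of the other 5 motifs. The windows of its listed starts 2 and 3, which lie further downstream, are 70.8% and 71.6% G and C, and that of start 3 held no CCAAT match. The windows of Txnip, Arrdc1, Arrdc2 and Arrdc4 are 66.8%, 62.0%, 60.4% and 58.0% G and C. A CCAAT match was found in 4 of the 5 members and in 33.8% of all windows, a TEAD match in 0 members and 12.6% of windows, and an AP-1 match in 0 members and 6.75% of windows. These matches describe letters in a window and not sites in use.

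The values are log2 intensities after RMA, so a step of 1 is a doubling, and precision is limited by having 3 arrays per origin. The median of the probe sets that carry no gene symbol, 4.18, is taken as a rough background. The 10 mammary epithelial markers were above it in each origin, with Krt8, a keratin of simple epithelium, at a mean of 12.8 in brain and 12.9 in primary lines. Krt5 was only just above it, at a mean of 4.40 in brain, 4.38 in lung and 4.23 in primary lines. In brain against primary lines, where 1.56% of all genes were called higher, 4 of these 10 markers rose (Krt14, Krt19, Cdh1 and Cldn3). In brain against lung lines, where 0.913% of all genes were called higher, 2 of the markers rose (Krt14 and Cldn7). Of these calls, those of Krt14 were kept in all 9 fits that left out a line, that of Cldn3 in 7, Krt19 in 4, Cldn7 in 2 and Cdh1 in 1. With the mouse number as a block, those of Cldn7 (limma adjusted p = 0.0594) and Cdh1 (adjusted p = 0.0538) were lost. The markers' summed log2 level was at least 14.3 in brain, 14.1 to 14.2 in lung and 13.9 to 14.1 in primary lines, and the part of these markers in the results below was not tested. Of 47 markers of fibroblasts, leukocytes, endothelium, astrocytes, neurons, oligodendrocytes and lung epithelium, 0 passed in any of the 3 comparisons with limma. Of all genes, 3.13% passed in brain against primary, 1.98% in brain against lung and 0% in lung against primary lines. The mean in brain lines was above the background for 4 of 8 fibroblast, 2 of 8 leukocyte, 5 of 7 endothelial, 3 of 6 astrocyte, 4 of 6 neuron, 3 of 5 oligodendrocyte and 5 of 7 lung epithelial markers. Among these were Pdgfra at 7.30 and Col1a1 at 6.19 (fibroblasts), Cd14 at 6.38 and Cd68 at 6.01 (leukocytes), Cldn5 at 5.43 (endothelium) and Gja1 at 11.1 (astrocytes, a gene that many epithelial cells also make). Ptprc, which marks leukocytes, was at 3.92, Pecam1 of endothelium at 4.21 and Dcn of fibroblasts at 3.63. In bulk RNA, fewer cells of a type and less RNA per cell cannot be told apart. Brain line 3 and lung line 1 stood apart from the others in the spread around the gene medians (interquartile range 0.178 and 0.164, against 0.0886 to 0.126 in the other 7 lines). The changes of Arrdc3 are given below with and without brain line 3, and over the fits that left out each line. Correlations are given only with both of these arrays included.

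**Figure D1:**
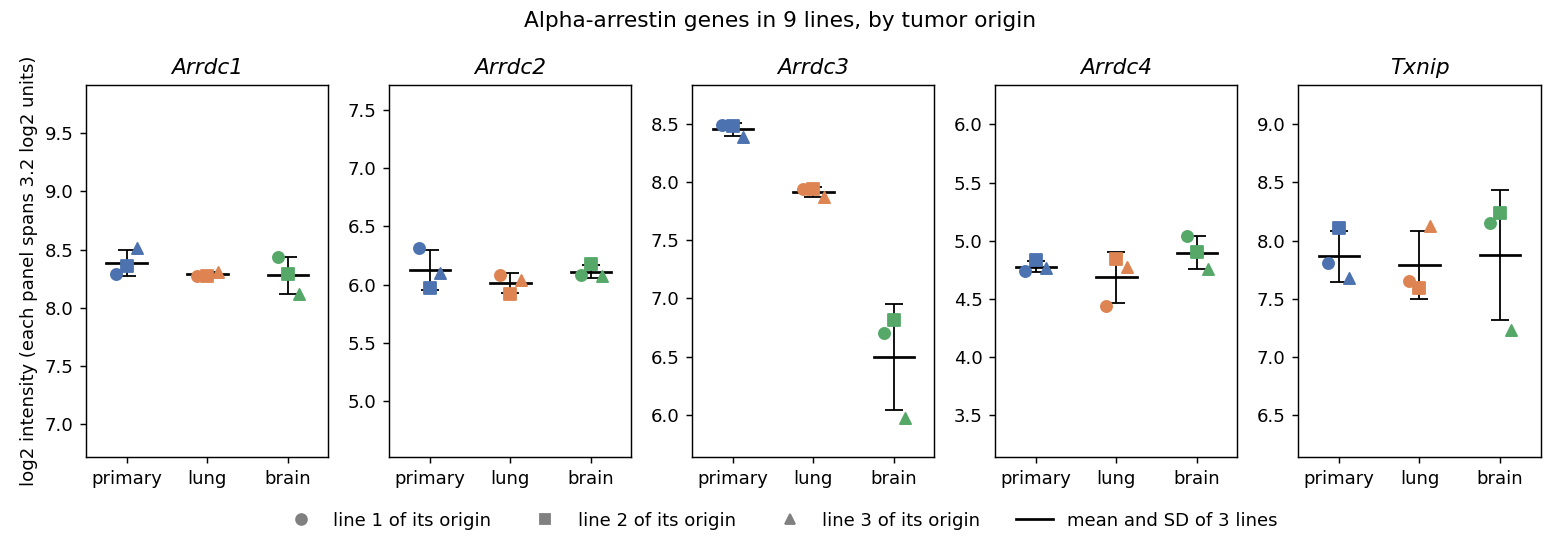
Log2 intensity of the 5 alpha-arrestin genes (vertical axis, own centre but equal span in each panel) in the 3 primary, 3 lung and 3 brain lines (horizontal axis); each point is 1 line, its shape gives the mouse number within the origin, the bar is the mean and the whiskers are 1 SD. In Arrdc3 the origins separate completely, with primary lines between 8.39 and 8.49, lung lines between 7.87 and 7.94 and brain lines between 5.98 and 6.81, and in each other panel the origins overlap.

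How the family differs between brain and primary lines is the first comparison. Arrdc3, the adaptor described as a suppressor of invasion, fell in brain lines. Its log2 level was 6.71, 6.81 and 5.98 in brain lines 1, 2 and 3. It was 8.49, 8.48 and 8.39 in primary lines 1, 2 and 3. All brain lines lay below all primary lines, with a gap of 1.58 between the highest brain and the lowest primary line, while 17.8% of all genes had no overlap in either direction. The log2 change was -1.95 ± 0.18 (SE of the limma model, 3 lines per origin, adjusted p = 0.00132 over all 19938 genes), which is a 3.88-fold lower level with a 95% interval from 2.93-fold to 5.12-fold. The fall ranked 6 among the falls of all genes. The fall of Arrdc3 was known before the family was listed, so its p is that of the fit over all genes and is not independent support.

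The other 4 members did not pass in brain against primary lines. Arrdc1, the vesicle-budding adaptor, was at 8.43, 8.29 and 8.12 in brain lines 1 to 3 and at 8.29, 8.36 and 8.51 in primary lines 1 to 3, a log2 change of -0.11 ± 0.09 (SE, limma adjusted p = 0.676). Arrdc2 was at 6.09, 6.17 and 6.07 in brain and at 6.31, 5.97 and 6.10 in primary lines, a change of -0.02 ± 0.09 (adjusted p = 0.966). The ranges of both genes overlapped between the origins. Arrdc4 was at 5.04, 4.90 and 4.75 in brain and at 4.74, 4.83 and 4.77 in primary lines, a change of 0.12 ± 0.11 (adjusted p = 0.721), and its mean over all lines was only 0.61 above the background. Txnip, the thioredoxin inhibitor, was at 8.15, 8.24 and 7.24 in brain and at 7.81, 8.11 and 7.68 in primary lines, a change of 0.01 ± 0.25 (adjusted p = 0.993). Brain lines 1 and 2 were thus above every primary line and brain line 3 below every one. The 95% interval of the change reached from -0.31 to 0.10 for Arrdc1, from -0.22 to 0.19 for Arrdc2, from -0.13 to 0.37 for Arrdc4 and from -0.55 to 0.58 for Txnip, and none of them overlapped the interval of Arrdc3, from -2.36 to -1.55. Of the 5 members 1 passed, where 3.13% of all genes passed, 1.57% as lower and 1.56% as higher (0.787% at a threshold of 0.01), and a count of 1 in 5 genes chosen with that fall known is a description only.

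How brain lines differ from lung lines is the second comparison. Arrdc3 fell here too. Its lung lines were at 7.94, 7.94 and 7.87, all above the 3 brain lines, with a gap of 1.05, where 16.9% of all genes had no overlap. The log2 change was -1.42 ± 0.18 (SE, 3 lines per origin, limma adjusted p = 0.00686), a 2.67-fold lower level in brain lines with a 95% interval from 2.02-fold to 3.53-fold, and the fall ranked 21 among all genes. The call was lost in a fit of only the 6 arrays compared (adjusted p = 0.0507). This comparison shares the brain lines with the first. Among the other members, Arrdc4 had the largest value, 0.21 ± 0.11 (adjusted p = 0.441), with lung lines at 4.44, 4.85 and 4.78. Without lung line 1 it was 0.09 ± 0.09 (adjusted p = 0.745). Txnip was at 7.65, 7.59 and 8.13 in lung lines (0.09 ± 0.25, adjusted p = 0.926). Arrdc2 was at 6.09, 5.92 and 6.04 (0.10 ± 0.09, adjusted p = 0.708), and Arrdc1 at 8.27, 8.27 and 8.31 (-0.0064 ± 0.09, adjusted p = 0.986). In each of these 4 genes the brain and lung lines overlapped. The members' count was again 1 of 5, beside 1.98% of all genes in either direction, 1.07% as lower and 0.913% as higher (0.331% at a threshold of 0.01).

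The third comparison sets lung against primary lines. No member passed, and no gene did in limma (0% of 19938 called, 946 genes at an unadjusted p under 0.05). Arrdc3 had the largest value of the family, -0.54 ± 0.18 (SE, 3 lines per origin, 95% interval -0.94 to -0.14, unadjusted p = 0.0138, limma adjusted p = 0.975). All 3 lung lines lay below all 3 primary lines, with a gap of 0.45, and the lung and primary lines of 8.71% of all genes did not overlap. Changes of the other 4 lay between -0.11 and -0.07, with overlapping lines. The levels of Arrdc3 thus ran in the order primary, lung and brain, and of the neighbours in that order, brain and lung differed by the test while lung and primary did not. Its SE pools the spread of all 3 origins, with an SD of 0.46 in brain, 0.04 in lung and 0.06 in primary lines. Without brain line 3 the lung against primary change was -0.54 ± 0.065 (limma adjusted p = 0.221). With only the 6 arrays compared it was -0.54 ± 0.06 (adjusted p = 0.904). That this step did not pass does not show that it is absent. In the other 4 genes no neighbouring origins differed by the test.

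**Figure D2:**
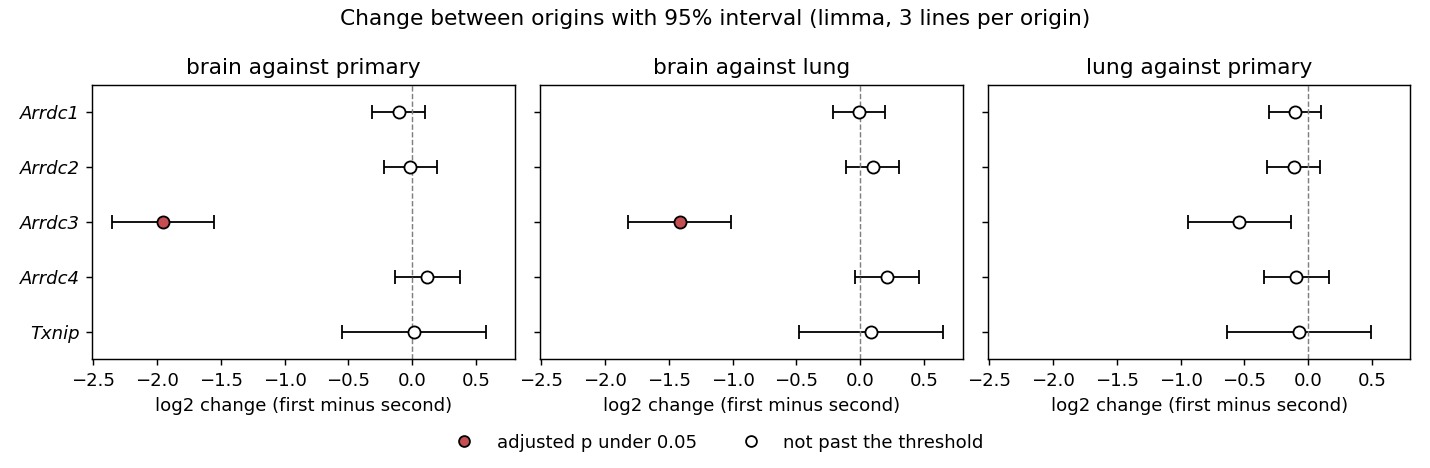
Log2 change (horizontal axis) of each alpha-arrestin gene in brain against primary, brain against lung and lung against primary lines, with its 95% interval from the limma model; filled points have an adjusted p under 0.05 over all genes. Arrdc3 is filled in both comparisons that involve brain lines (-1.95 and -1.42) and open in lung against primary lines (-0.54), and the intervals of the other 4 genes include 0 throughout.

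Brain line 3 was the lowest brain line in all 5 members. The gap to the next brain line was 0.73 for Arrdc3, 0.92 for Txnip (a 1.89-fold difference), 0.17 for Arrdc1, 0.15 for Arrdc4 and 0.01 for Arrdc2. In Arrdc3, Txnip and Arrdc1 it was also the lowest of all 9 lines. Without brain line 3 the change of Arrdc3 was -1.69 ± 0.07 against primary (adjusted p = 1.0e-04) and -1.16 ± 0.07 against lung lines (adjusted p = 0.00252). Whether the wider spread of that array bears on its low values was not tested. With any 1 of the 9 lines left out, Arrdc3 kept its call in all 9 fits of both comparisons, with log2 changes from -2.11 to -1.69 against primary and from -1.57 to -1.16 against lung lines.

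**Figure D3:**
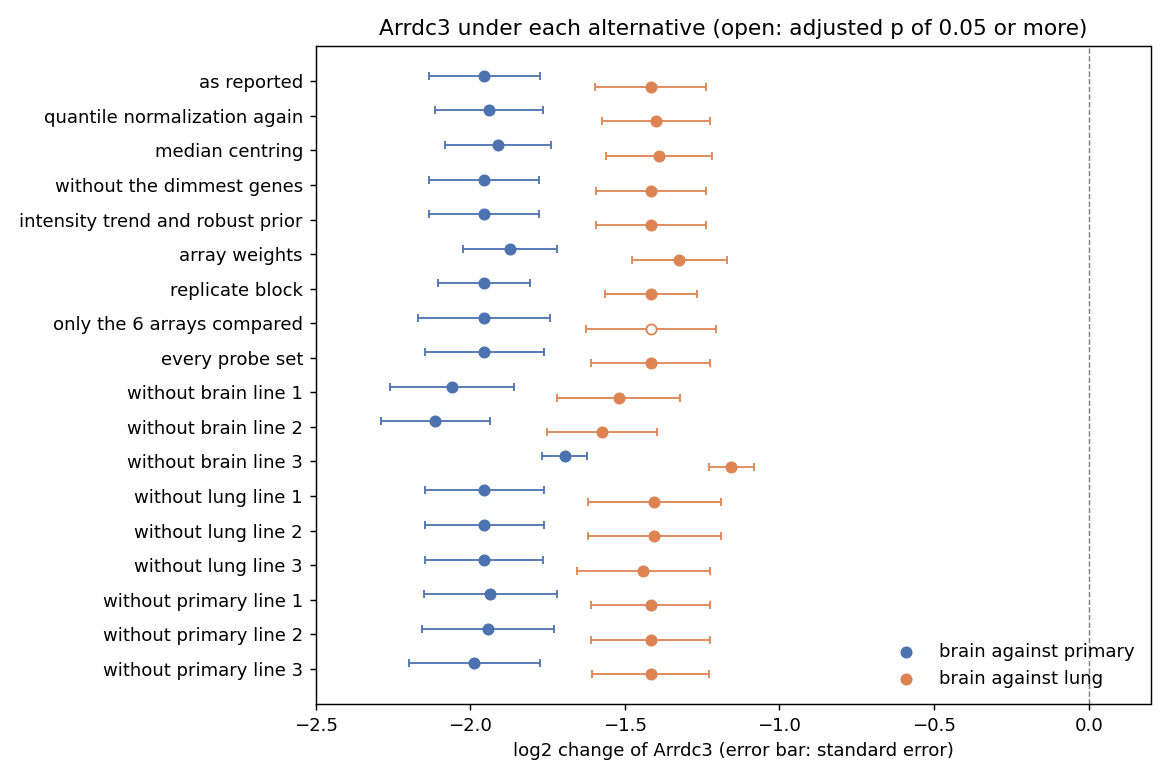
Log2 change of Arrdc3 (horizontal axis, error bars are standard errors) in brain against primary and brain against lung lines under the reported fit and each alternative (vertical axis); filled points have an adjusted p under 0.05. All values lie between -2.11 and -1.16, and the single open point is brain against lung lines with only the 6 arrays compared (adjusted p = 0.0507).

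The levels of the members over the 9 lines were also set against each other in pairs. Between Arrdc3 and Txnip, Pearson's r was 0.16 and Spearman's rho -0.08, and between Arrdc3 and Arrdc4 they were -0.33 and -0.37. Between Arrdc3 and Arrdc1 they were 0.47 and 0.33, and between Arrdc3 and Arrdc2 -0.005 and 0.16. Txnip and Arrdc4, both known sugar-induced genes, had an r of 0.49 and a rho of 0.60, and Txnip and Arrdc1 an r of 0.48 and a rho of 0.57. These are descriptions over 9 lines from 3 origins that share normalization. The standard deviation of Arrdc3 over the 9 lines was at least that of 99.8% of genes and that of Txnip of 96.3%, against 36.9% for Arrdc1, 38.8% for Arrdc2 and 68.5% for Arrdc4. Arrdc5, the remaining alpha-arrestin, had values from 3.80 to 4.10, all below the background, so no change is given for it.

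The genes whose 9 values were most like those of Arrdc3 were sought among 13198 genes above background. Being chosen for this likeness, they share with Arrdc3 the order of the lines by that choice, so their values are a description with no test. Ckb, the brain-type creatine kinase, came first (Pearson's r 0.99, Spearman's rho 0.93). It was at 7.88, 7.71 and 7.31 in brain, 8.41, 8.49 and 8.40 in lung and 8.71, 8.94 and 8.83 in primary lines. Its log2 change was -1.19 ± 0.13 (SE) against primary and -0.80 against lung lines. Tnfsf10, the death ligand TRAIL, followed with an r of 0.98, at 4.05, 4.21 and 3.74 in brain, 4.74, 4.79 and 4.81 in lung and 4.98, 5.28 and 5.003 in primary lines, its brain lines thus around the background. Secisbp2l had an r of 0.98 but a small change of -0.27 ± 0.07 against primary lines. Foxl1, a forkhead transcription factor, and Trib2, a pseudokinase, each had an r of 0.97, with changes of -0.78 ± 0.12 and -1.02 ± 0.17 against primary lines.

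**Figure D4:**
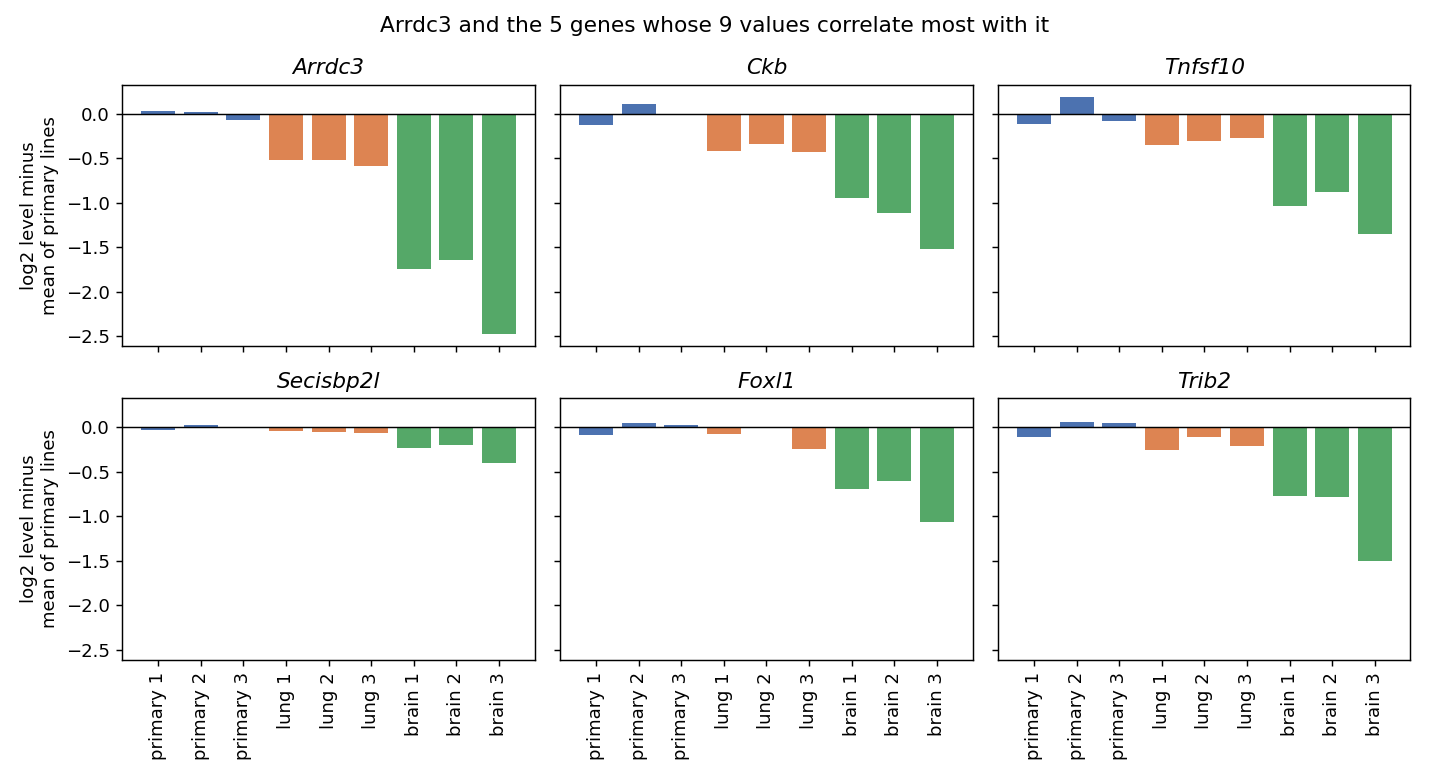
Log2 level of Arrdc3 and of the 5 genes most correlated with it over the 9 lines, minus the mean of the primary lines (vertical axis), with 1 bar per line (horizontal axis) coloured by origin. In all 6 genes the brain bars reach lowest and brain line 3 is the lowest bar, and the changes of Secisbp2l are small beside those of Arrdc3.

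The genes most like the other members were found in the same way and are given as a description too. Adm, which encodes the vasodilator peptide adrenomedullin, was the nearest to Txnip (r 0.89, rho 0.82) and was at 5.89, 6.55 and 4.43 in brain, 5.19, 5.48 and 6.26 in lung and 5.72, 5.90 and 5.95 in primary lines, lowest in brain line 3 as Txnip was. Recql4, Slamf9, Ccdc167 and Flvcr2 came next, with r from 0.84 to 0.86. The 5 genes nearest to Arrdc4 were led by Cspg5 (r 0.96), those nearest to Arrdc1 by the thyroid hormone receptor gene Thra (r 0.95) and those nearest to Arrdc2 by Pafah1b1 (r 0.91). Arrdc4 and all 5 genes nearest to it were lowest in lung line 1, and Arrdc1 and all 5 nearest to it in brain line 3. These are the lines with the widest spread around the gene medians, and the part of these arrays in the r values was not tested.

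In 4 lists of ligases, vesicle genes and other arrestins, 0 genes passed in brain against primary lines, where 3.13% of all genes passed. With so small a share, lists of this size can hold 0 called genes, so the counts are a description only. Of the 9 ubiquitin ligases of the NEDD4 family 0 passed in brain against primary lines, with a median log2 change of 0.02 beside 0.0049 over all genes. The values with the smallest p were -0.33 ± 0.10 for Wwp1 (SE, limma adjusted p = 0.110) and 0.52 ± 0.17 for Nedd4l (adjusted p = 0.141), both ligases of that family. Of 16 genes of the ESCRT machinery, which pinches off vesicles, 0 passed (median -0.10), and Tsg101, the component that Arrdc1 recruits, was at -0.28 ± 0.12 (adjusted p = 0.310). Chmp4c of the same list was at 0.68 ± 0.16 (adjusted p = 0.0578). Among 4 beta-arrestin and visual arrestin genes 0 passed (median -0.03), and Arrb1, which encodes beta-arrestin 1, was at -0.51 ± 0.12 (adjusted p = 0.0524). Among 5 other genes of the arrestin fold, which include the retromer subunits Vps26a and Vps26b, 0 passed (median -0.05). In brain against lung lines these 4 lists also had 0 members that passed, beside 1.98% of all genes.

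Receptors and transporters reported as cargo of alpha-arrestins went both ways. Of 9 measured, 1 rose and 2 fell in brain against primary lines, with a median of -0.09, where 1.56% of all genes were called higher and 1.57% lower. The calls of both that fell were lost in most fits that left out a line. Slc11a2, which encodes the iron transporter DMT1, was at 8.48, 8.75 and 8.53 in brain and at 7.97, 7.97 and 8.08 in primary lines. It rose by 0.58 ± 0.08 on the log2 scale (SE, limma adjusted p = 0.00791) and kept its call without any 1 line, and it rose by 0.50 ± 0.08 against lung lines (adjusted p = 0.0211), a call lost without lung line 1 (0.0680), 2 (0.0686) or 3 (0.0738), with only the 6 arrays compared (0.0718) and with every probe set (0.0715). F2r, the thrombin receptor PAR1, fell (-0.39 ± 0.08, adjusted p = 0.0388), but this call was kept in 0 of the 9 fits that left out a line, with adjusted p from 0.0539 without lung line 2 to 0.104 without primary line 3. Insr, the insulin receptor, fell (-0.56 ± 0.11, adjusted p = 0.0323), a call kept in 1 of 9 such fits, that without brain line 3, with adjusted p up to 0.103 in the others. Itgb4, which encodes the integrin subunit named above as a target of human ARRDC3, was at 8.78, 8.79 and 8.36 in brain, 8.997, 8.91 and 8.85 in lung and 9.18, 9.04 and 8.60 in primary lines (-0.30 ± 0.16 against primary lines, adjusted p = 0.427), and its brain and primary lines overlapped. The transcript level does not show the amount of protein.

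Of the genes around the thioredoxin and sugar functions of Txnip and Arrdc4, 1 passed in brain against primary lines, where 3.13% of all genes passed. In brain against lung lines, where 1.98% of all genes passed, 0 thioredoxin system genes did, with a smallest limma adjusted p of 0.0510. Of 11 thioredoxin system genes 0 passed in brain against primary lines (median -0.06), with Txn1, the thioredoxin that Txnip binds, at 0.02 ± 0.06 (adjusted p = 0.939) and the smallest p in Txn2, the mitochondrial form (0.30 ± 0.09, adjusted p = 0.115). Of 10 glucose transporters 0 passed (median -0.065), with Slc2a1, which encodes the widespread transporter GLUT1, at 0.24 ± 0.11 (adjusted p = 0.315). Of 12 genes of sugar sensing, a list that also holds Txnip and Arrdc4, 1 rose, the hexokinase gene Hk2 (0.48 ± 0.11, adjusted p = 0.0444), and its call was kept in 2 of the 9 fits that left out a line, with adjusted p up to 0.147. Mlxip, which encodes MondoA, was at 0.16 ± 0.07 (adjusted p = 0.318) and its partner Mlx at 0.01 ± 0.07 (adjusted p = 0.978). Of 15 genes, made up of glucocorticoid-induced genes and the receptor gene Nr3c1, 0 passed (median -0.05), with Nr3c1 at 0.31 ± 0.09 (limma adjusted p = 0.103).

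Among 15 genes, made up of FOXO factors and genes that they induce, 2 fell and 0 rose in brain against primary lines (median -0.14), beside 1.57% of all genes called lower. Ccng2, which encodes cyclin G2, an inhibitory cyclin, was at 7.49, 7.66 and 7.83 in brain, 8.51, 8.51 and 8.61 in lung and 8.73, 8.85 and 9.07 in primary lines, so that its origins were in the same order as those of Arrdc3 without overlap. It fell by 1.22 ± 0.11 on the log2 scale against primary (SE, limma adjusted p = 0.00116) and by 0.88 ± 0.11 against lung lines (adjusted p = 0.00633), and both calls were kept without any 1 line. Unlike in Arrdc3, brain line 3 was the highest of the brain lines. The other fall of the list was that of Insr, whose call was kept in only 1 of 9 fits that left out a line. Human ARRDC1 and ARRDC3 are reported to restrain YAP, and whether Arrdc3 has a part in the values that follow was not tested. Among 13 genes of YAP, TAZ, their partners and core targets, 5 rose and 0 fell (median 0.23), beside 1.56% of all genes called higher. All 5 were targets or YAP-associated genes (Ccn2, Ccn1, Ajuba, Amotl2 and Ankrd1), of which Ccn2 was at 10.7, 10.8 and 11.3 in brain, 9.30, 9.44 and 9.46 in lung and 8.54, 8.94 and 8.63 in primary lines. Yap1 itself was at 0.03 ± 0.09 (adjusted p = 0.931) and Wwtr1, which encodes TAZ, at -0.33 ± 0.08 (adjusted p = 0.0558). Calls of Amotl2 and Ajuba were lost without primary line 1 (0.0641 and 0.0541) or 2 (0.0642 and 0.0540), with only the 6 arrays compared (0.0749 and 0.0754) and with every probe set (0.0570 for both). The rise of YAP targets was already known when this list was written.

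**Figure D5:**
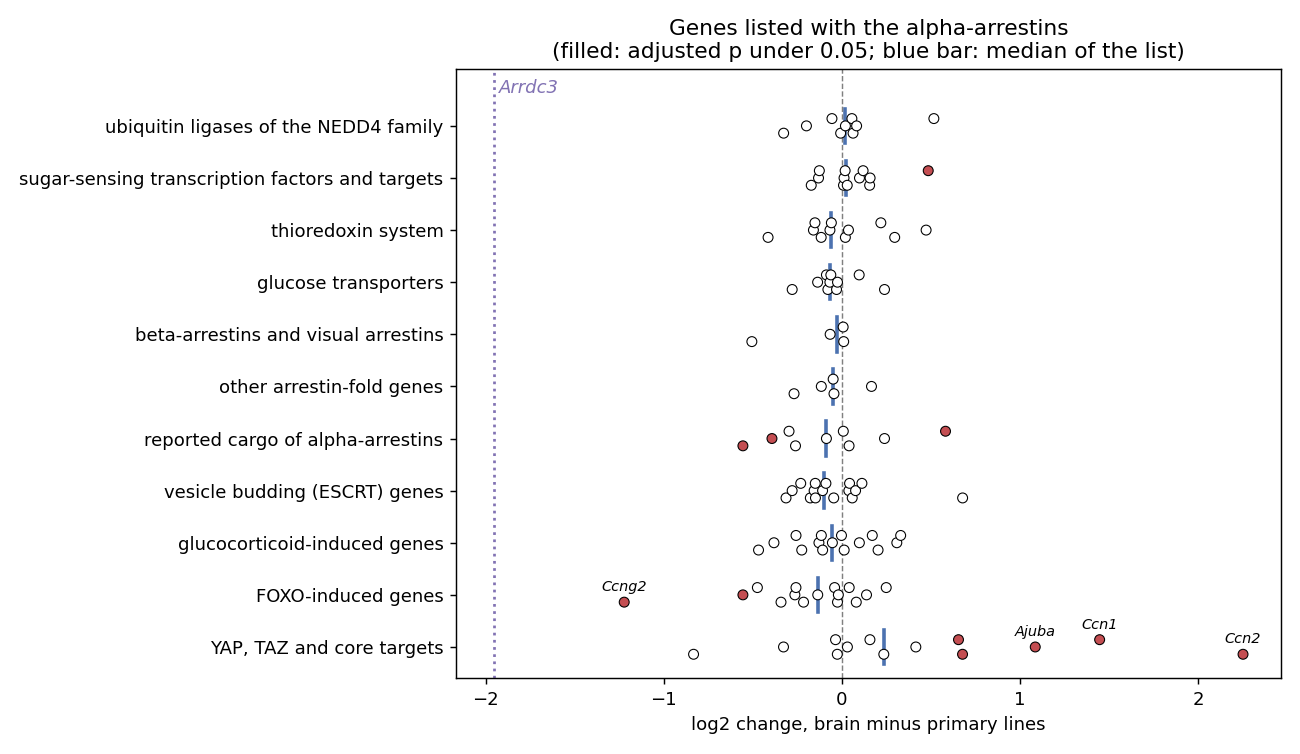
Log2 change in brain against primary lines (horizontal axis) of each gene in the 11 lists (vertical axis); filled points have an adjusted p under 0.05, the blue bar is the median of the list, and the dotted line marks Arrdc3 at -1.95. Of the listed genes past the threshold, Ccng2 lies nearest to Arrdc3 (-1.22), and the genes named on the right (Ajuba, Ccn1 and Ccn2) belong to the YAP list.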

How the data were processed

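RNA from 9 cell lines was hybridised to 9 arrays, with no pooling of lines stated. The deposited table holds log2 intensities to which the authors applied RMA, a method named in the submitters' processing notes (background correction, quantile normalization and a summary per probe set). The log base comes from the range of the values, and no source used here gives the RMA version or the genome build. The medians of the arrays lay between 5.06 and 5.19. Of 35557 probe sets, 21789 had 1 gene symbol in the platform annotation, 1621 had several and 12147 had none, and the highest-mean probe set per symbol gave 19938 genes. The fit used limma 3.58.1 (R 4.3.3, lmFit and eBayes, two-sided) with a coefficient per origin over all 9 arrays, 6 residual and 3.72 prior degrees of freedom, and Benjamini-Hochberg adjustment over all 19938 genes. A gene was called at an adjusted p under 0.05. Errors after ± are standard errors of this model, and the intervals hold 95%. The 3 lines of an origin came from separate mice, and since they share a line name the p-values measure only the spread between these lines.

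The members and the 11 gene lists were chosen with earlier results of these data known. Of 122 listed symbols 116 were measured, and of 58 markers 57. The rule for naming genes took the members, up to 4 called genes of each list (or 2 with the smallest p) and the 5 nearest genes per member by Pearson's r. Histone, olfactory receptor, predicted and small RNA genes were left out of the nearest genes. Not every gene that the rule took is named above. Some further genes (Arrdc5, Vps26a, Vps26b, Tsg101, Chmp4c, Itgb4, Txn1, Slc2a1, Mlx, Yap1 and Wwtr1) were named for their known role or after their values were seen. The same holds for Mlxip and Ankrd1. On simulated data with 100 genes changed by a log2 value of 1 and 100 by 2 among 19938, in brain against primary lines, the fit recovered 94% and 100% of them, with 14 false calls.

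Within an origin the mice carry numbers from 1 to 3 in the labels. Deviations from the group means of same-numbered brain and lung lines correlated across genes at 0.284, 0.130 and 0.241, so a fit with the mouse number as a block was made, and what that number shares is not stated. Alternatives were quantile normalization again, median centring, leaving out the dimmest genes, array weights, a robust prior with a trend on intensity, this block, leaving out each line, every probe set as a feature, only the 6 arrays compared and a threshold of 0.01.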

Additional observations from a re-analysis of the deposited data

How the results depend on the processing

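Arrdc3 kept its direction in all 17 alternative fits of each comparison. The number of members called in brain against primary lines was 1 in all 18 alternatives, the threshold of 0.01 included, and in lung against primary lines 0 in all 18. In brain against lung lines it was 1, except 0 with only the 6 arrays compared, where the change of Arrdc3 was the same, -1.42, with limma adjusted p = 0.0507; over its alternatives that adjusted p ran from 0.00252 to 0.0507. The replicate block gave Arrdc3 -1.95 ± 0.15 (adjusted p = 0.00136) against primary and -1.42 ± 0.15 (adjusted p = 0.00521) against lung lines, and it changed no member's call; of the other named genes called, it ended the calls of Cldn7 and Cdh1. Deviations of same-numbered lines correlated at 0.07, -7e-04 and -0.04 between brain and primary and at 0.22, 0.08 and 0.01 between lung and primary lines. The 0.22, of number 1, lay among the values between brain and lung lines (0.130 to 0.284), and the others were below them. What an equal number means is not stated.

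The changes of the other 4 members passed in 0 of 204 alternative fits (lowest adjusted p 0.363), and their sign, which no test had called, differed in 18. For Arrdc2 against primary lines it was 0.0278 with quantile normalization again and 0.0272 with median centring, and from -0.0947 to 0.0754 without 1 line (0.0021 without brain line 3). For Txnip in brain against primary lines it was -0.13, -0.17, -0.02 and -0.08 without brain lines 1 and 2 and primary lines 1 and 3, and 0.33 at most, without brain line 3. In brain against lung lines Arrdc1 was at 0.0211 with median centring, 0.0158 with array weights and from -0.0833 to 0.0748 without 1 line (positive without brain line 3 or lung line 3), and Txnip from -0.0955 to 0.4066 (negative without brain line 1, brain line 2 or lung line 2). In lung against primary lines Arrdc4 ran from -0.17 to 0.0323 (positive without lung line 1) and Txnip from -0.2425 to 0.0461 (positive without lung line 2 or primary line 2). The cause was not tested.

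Of all genes, 624 were called in brain against primary lines. This became 157 at the threshold of 0.01, 197 with only the 6 arrays compared, 246 with every probe set, 273 to 556 without 1 line, 784 with quantile normalization again, 783 without the dimmest genes, 831 with array weights and 839 with the replicate block. In brain against lung lines 395 became 66, 107, 92, 69 to 417, 516, 497, 533 and 566 in the same order. In brain against primary lines 311 of 624 were higher, and with median centring 313 of 512. The calls of Hk2, F2r and Insr against primary lines were lost with median centring (limma adjusted p = 0.0651, 0.102 and 0.0591), with only the 6 arrays compared (0.108, 0.0987 and 0.120) and with every probe set (0.119, 0.0980 and 0.0974). No scaling moved the median of all genes by more than 0.05.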

Other observations

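Identical values in different lines were common in the deposited table: 56.9% of genes had the same value in at least 1 pair of lines, and a pair of lines shared 4.68% to 7.90% of its values. Arrdc3 was an example, with 7.94 in both lung line 1 and lung line 2, and Arrdc5 another, with 4.05 in brain lines 1 and 3 and lung line 2. The part of such equal values in the small standard deviation of Arrdc3 in lung lines, 0.04, was not tested.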
